A study of Mus musculus with 12 samples.

Results

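The nuclear genes for the subunits of the mitochondrial respiratory chain were followed by complex in RNA of mouse liver. They were taken by symbol, as names beginning Nduf with a, b, c, s or v and a number (complex I), Sdha to Sdhd (complex II), names beginning Uqcr (complex III), Cox with a number from 4 to 8 and a letter from a to c (complex IV) and names beginning Atp5 (complex V, the ATP synthase). The rule found 87 of the 55903 genes in the table, 40 in complex I, 4 in complex II, 8 in complex III, 17 in complex IV and 18 in complex V. The 13 names containing -ps and the complex I assembly factors were left out by the rule. Of the 87 genes, 79 had a mean of at least 1 TPM (a level per transcript length, scaled to the same total in each library) over the 12 libraries and entered the tests. The other 8 are described with their complexes. The annotation gives 4 of the 87 as processed pseudogenes, Ndufa11b, Ndufb4c, Ndufs6b and Cox6c2, of which Ndufb4c is among the 79.

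The libraries fell into 3 groups of 4. The KSL0608-Se-treated group received a compound known here by that code, and its description joins doxo with the compound's name. The aged/doxo group is titled as an aged control, has the condition aged and is described as doxo. The young control group has the condition young. The labels give total RNA of liver for all 3 groups and no strain, sex, age in numbers, dose, batch or assignment of animals to libraries. Whether aged, doxo or both set the aged/doxo and the treated mice apart from the young controls cannot be told apart here.

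Electrons from NADH enter the chain at complex I and electrons from succinate at complex II, and both pass through coenzyme Q and complex III to cytochrome c and on to oxygen at complex IV. The proton gradient built on the way drives ATP synthesis by complex V. Complex II is encoded wholly in the nucleus, whereas the other complexes join nuclear subunits with core subunits made inside the mitochondrion, and hepatocytes hold many mitochondria for fatty acid oxidation and the synthesis of glucose and urea.

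Libraries differed in ways that bear on every gene below. Aged/doxo library 2 and young control library 1 stood apart, with a summed level of 6 hepatocyte markers of 40469 and 45851 TPM, against 57365 to 71736 TPM in the other 10 libraries. All 6 hepatocyte markers were present in every group. The mitochondrially encoded subunits took 27.2% of all TPM in aged/doxo library 2, whereas no other library lay outside 8.04% to 12.3%. The differences that move most with these libraries are also given without both of them, a choice made after seeing the data. In bulk tissue, fewer cells of a type and less RNA per cell cannot be told apart.

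Transcripts of the chain were among the more abundant of the liver. Of the 79 genes, 67 had a mean of at least 100 TPM (84.8%), as did 7.865% of the 10883 genes tested. Their median was 220.5 TPM and that of all genes tested 6.65 TPM. They were also short, with a median deposited length of 723 bases against 2475 bases for all genes tested. Together the 87 genes held 2.44 ± 0.134% of all TPM in the KSL0608-Se-treated group, 2.41 ± 0.307% in the aged/doxo group and 2.34 ± 0.158% in the young control group (SD, n = 4 libraries each). The spread within the aged/doxo group, between 2.07% in library 2 and 2.81% in library 4, was wider than any difference between the group means.

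The most abundant gene of a complex was the same in most libraries. Ndufa4 was the highest of the Nduf genes in 11 of 12 libraries, Sdhb the highest of complex II in 12 and Uqcrq the highest of complex III in 12. Cox6a1 was the highest of the complex IV genes in 11. In complex V the beta subunit gene Atp5b was highest in 7 libraries and the epsilon subunit gene Atp5e in the rest.

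**Figure D1:**
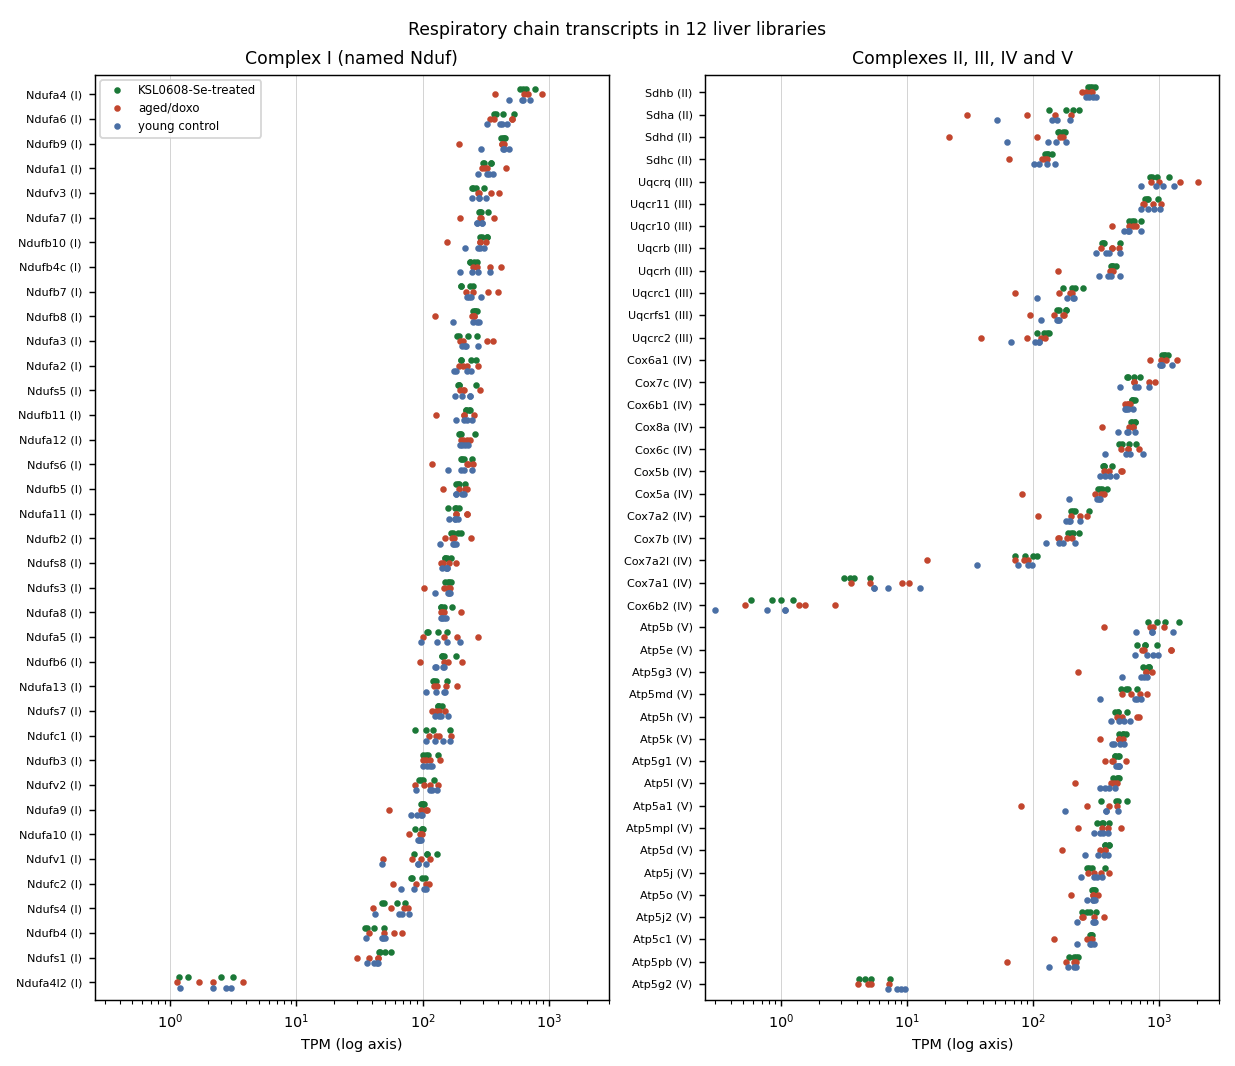
Level of 78 of the 79 tested genes in the 12 libraries (TPM, log axis), with 1 point per library and the complex in brackets. Most genes lie above 100 TPM, and the low ones are Ndufa4l2, Cox7a1, Cox6b2 and Atp5g2. The value of 0 for Cox6b2 in young control library 3 is drawn as the leftmost point. Among the points far to the left of their row are Sdha, Sdhd and Atp5a1 in aged/doxo library 2.

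No gene of the chain passed the threshold in any of the 3 comparisons. The test was limma on log2(TPM + 1) over all 10883 genes, two-sided, with Benjamini-Hochberg adjustment at 0.05. It called 0 of 79 genes in aged/doxo against young control liver, where 0.00919% of all genes were called. In KSL0608-Se-treated against aged/doxo liver it called 0 of 79, with 0.00919% of all genes called. In KSL0608-Se-treated against young control liver it called 0 of 79, with 0.0276% of all genes called. Each group serves in 2 of these comparisons, so they share libraries.

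At an unadjusted p under 0.05 the counts were low too. Atp5g2, a gene for subunit c of ATP synthase, was the 1 gene of 79 (1.27%) at that level in aged/doxo against young control liver, where 1.98% of all genes reached it. None did in KSL0608-Se-treated against aged/doxo liver, with 4.77% of all genes, but without aged/doxo library 1 this became 6 of 79 (7.59%), with 22.7% of all genes. Atp5g2 and Cox7a1, the heart and muscle form of subunit VIIa, did in KSL0608-Se-treated against young control liver (2.53%), with 3.4% of all genes. Each share was below that of all genes in the same fit, and none is a result about the chain.

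Groups that did not overlap were as rare. No gene of the chain separated aged/doxo from young control libraries, where 0.689% of all genes were higher and 0.312% lower in every aged/doxo library. Ndufs1 and Cox6b1 were higher in every KSL0608-Se-treated than in every aged/doxo library, 2.53% of the 79 against 2.77% of all genes, and none was lower, against 0.358%. Ndufs1 was also higher in every KSL0608-Se-treated than in every young control library (1.27% against 3.66% of all genes), and Cox7a1 was lower in every one (1.27% against 0.358%).

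The size of the differences was small for most of the chain. The median log2 difference of the 79 genes was -0.02 in aged/doxo against young control liver, beside -0.08 for all genes. It was 0.04 in KSL0608-Se-treated against aged/doxo liver, beside 0.30 for all genes, and 0.04 in KSL0608-Se-treated against young control liver, beside 0.23. The median half-width of the 95% intervals was 0.47 on the log2 scale, so differences of that size in a single gene were not resolved. The whole interval lay within 1 log2 unit of 0 for 71 of 79 genes in aged/doxo against young control liver. It did so for 65 of 79 in KSL0608-Se-treated against aged/doxo liver and for 69 of 79 in KSL0608-Se-treated against young control liver.

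**Figure D2:**
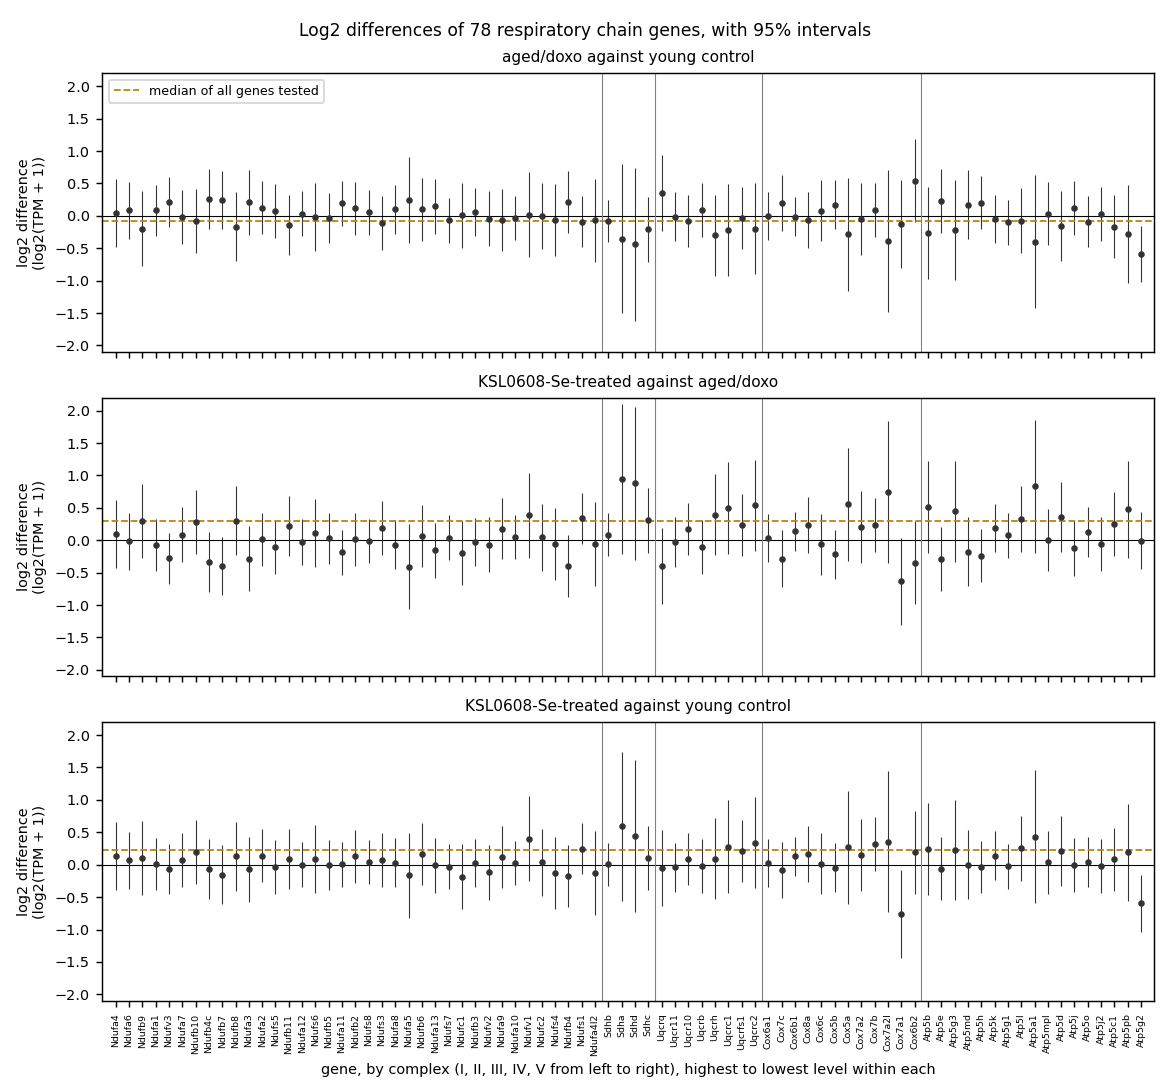
Log2 difference of 78 of the 79 tested genes on the log2(TPM + 1) scale in the 3 comparisons, with 95% intervals from limma. Genes run by complex and by level. Intervals of Sdha, Sdhd, Cox7a2l, Cox5a and Atp5a1 are the widest, the intervals of Atp5g2 and Cox7a1 leave 0 out in the comparisons named in the text, and the dashed line is the median of all genes tested.

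How the treated libraries stand relative to the others depended on the scaling. With median-of-ratios scaling the median of all genes moved to 0.00 in both comparisons of the treated group, and that of the chain moved to -0.32 against aged/doxo and -0.24 against young control liver. The chain lay below the median of all genes under both scalings, but this was not particular to it. In TPM as deposited, the 957 tested genes below the chain's median length had medians of -0.04 against aged/doxo and 0.02 against young control liver. The 89 cytosolic ribosomal protein genes had 0.04 and 0.08. Without aged/doxo library 2 and young control library 1 the medians of the chain were -0.06 against aged/doxo liver, beside 0.13 for all genes, and 0.04 against young control liver, beside 0.09. Aged/doxo against young control liver then gave 0.09, beside -0.04 for all genes, and 0 of 79 genes were called in each comparison.

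Complex I takes up electrons from NADH. Ndufa4, the most abundant of the Nduf genes and since assigned to complex IV by its protein, averaged 665 ± 84.4 TPM in KSL0608-Se-treated, 649 ± 209 TPM in aged/doxo livers and 610.1 ± 93.4 TPM in young control livers (SD, n = 4 each). Its paralogue Ndufa4l2 stood between 1.12 and 3.79 TPM, between 0.174% and 0.529% of the sum of the pair. The 7 core subunits that carry the flavin and the iron-sulfur clusters had lower group means, with a median of 136 TPM in KSL0608-Se-treated, 133 TPM in aged/doxo livers and 134 TPM in young control livers. The 30 other tested Nduf genes annotated as protein-coding had a median of 204 TPM in KSL0608-Se-treated, 204 TPM in aged/doxo livers and 201 TPM in young control livers. The core genes were longer, with a median length of 1623 bases against 681.5 bases for the others.

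Ndufs1 encodes the largest iron-sulfur subunit, part of the arm that oxidises NADH, and lies on chromosome 1 from 63143596 to 63176833 (GRCm38, minus strand). It had 44.9, 46.3, 49.9 and 56.4 TPM in the KSL0608-Se-treated libraries, 44.5, 30.0, 44.0 and 37.9 TPM in the aged/doxo libraries and 36.2, 43.8, 44.3 and 41.5 TPM in the young control libraries. The lowest treated library exceeded the highest of each other group by less than 1 TPM. The log2 difference was 0.34 ± 0.18 (SE) against aged/doxo liver (limma adjusted p = 0.427) and 0.25 ± 0.18 against young control liver (limma adjusted p = 0.734). Over the 10 libraries other than aged/doxo library 2 and young control library 1 these were 0.22 and 0.18, and under median-of-ratios scaling both turned to -0.03. An exon of Ndufs1 overlaps Eef1b2 on the opposite strand, which averaged 153 TPM, and the sources used here do not say whether counting used strand.

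Ndufv1, the subunit that binds NADH and FMN, followed the same libraries. It had 85.3, 108, 109 and 130 TPM in KSL0608-Se-treated libraries, 114, 48.6, 97.8 and 82.6 TPM in aged/doxo libraries and 47.4, 106, 91.9 and 92.4 TPM in young control libraries. Its lowest values were in aged/doxo library 2 and young control library 1, and the groups overlapped. The log2 difference was 0.38 ± 0.30 against aged/doxo liver (limma adjusted p = 0.448) and 0.40 ± 0.30 against young control liver (limma adjusted p = 0.734). Without those 2 libraries these were 0.14 and 0.15.

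Accessory genes of the membrane arm differed in direction. Ndufb7, which was lower in treated than in aged/doxo liver on average, had 252, 239, 201 and 204 TPM in KSL0608-Se-treated libraries, 222, 399, 251 and 333 TPM in aged/doxo libraries and 293, 226, 233 and 244 TPM in young control libraries. Its highest values were in aged/doxo libraries 2 and 4, and the log2 difference was -0.40 ± 0.21 in treated against aged/doxo liver (limma adjusted p = 0.427). Ndufb4 gave -0.39 ± 0.22 and Ndufv3, an accessory gene of the NADH-oxidising arm, -0.28 ± 0.18 in the same comparison. The differences of Ndufb7, Ndufb4 and Ndufv3 were -0.25, -0.26 and -0.17 without aged/doxo library 2 and young control library 1. Ndufb8, Ndufb9 and Ndufb10, also of the membrane arm, gave 0.30, 0.30 and 0.28 over all 12 libraries, beside a median of 0.30 for all genes. Without those 2 libraries these 3 genes gave 0.05, 0.01 and 0.05, and Ndufb8 and Ndufb9 were picked after their values were seen. Ndufa11, another of that arm, averaged 180 ± 15.3 TPM in KSL0608-Se-treated, 205 ± 23.3 TPM in aged/doxo livers and 179 ± 12.4 TPM in young control livers. Ndufb4 and Ndufb4c are uncertain, since 390 bases of Ndufb4c match Ndufb4 at 100% identity. They averaged 46.6 and 279 TPM, and the split of reads between them is unknown. The complex I median was 0.00 in treated against aged/doxo liver, with 19 of 38 genes higher, and 0.03 in aged/doxo against young control liver, with 21 of 38 higher. Over the 10 libraries these were -0.11, with 9 of 38 higher, and 0.13, with 32 of 38 higher, beside 0.13 and -0.04 for all genes, and none was called. Ndufa11b was listed at 0 in every library and Ndufs6b did not exceed 0.50 TPM. Ndufb1-ps, left out by its name, stood between 65.2 and 147 TPM.

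Complex II, succinate dehydrogenase, had the widest spread. Sdha, the flavoprotein that oxidises succinate, lies on chromosome 13 from 74322254 to 74350280 and had 133, 183, 205 and 229 TPM in KSL0608-Se-treated libraries. It had 201, 29.9, 150.1 and 89.3 TPM in aged/doxo libraries and 51.4, 195, 141 and 155 TPM in young control libraries. Aged/doxo library 2 and young control library 1 were lowest, and the groups overlapped. The membrane anchor gene Sdhd, on chromosome 9 from 50596357 to 50603812, had 160, 157, 178 and 174 TPM in treated libraries, 172, 21.6, 162 and 107 TPM in aged/doxo libraries and 62.2, 153, 130 and 181 TPM in young control libraries. The same 2 libraries were again lowest.

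The iron-sulfur subunit gene Sdhb did not share this pattern. It averaged 288 ± 14.6 TPM in KSL0608-Se-treated, 272 ± 21.4 TPM in aged/doxo livers and 287 ± 23.3 TPM in young control livers, with a lowest value of 246 TPM in aged/doxo library 2. The other anchor gene, Sdhc, averaged 131 ± 6.88, 109 ± 29.7 and 123 ± 21.1 TPM in treated, aged/doxo and young control liver in that order. Sdhb varied by 1.28-fold between its lowest and highest library and Sdhd by 8.35-fold.

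In KSL0608-Se-treated against aged/doxo liver all 4 complex II genes were higher, with a median log2 difference of 0.60. Of all 10883 genes tested, 8815 were higher there, and the median of all was 0.30. Sdhb turned to the other sign under all 3 other scalings and Sdhc under median-of-ratios scaling. The difference was 0.94 ± 0.53 for Sdha and 0.88 ± 0.54 for Sdhd, and neither passed (limma adjusted p = 0.427 for both). Without aged/doxo library 2 and young control library 1 the Sdha difference was 0.40 and that of Sdhd 0.21. The complex II median was then 0.15, beside 0.13 for all genes. Against young control liver the treated median was 0.27, beside 0.23 for all genes, and 0.07 without those libraries, beside 0.09. In aged/doxo against young control liver all 4 complex II genes were lower, with a median of -0.28, as were 7030 of all 10883 genes, with a median of -0.08. Without aged/doxo library 2 alone Sdha, Sdhc and Sdhd took the other sign, at 0.19, 0.02 and 0.23.

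Complex III passes electrons from coenzyme Q to cytochrome c. Its small subunit gene Uqcrq, on chromosome 11 from 53427922 to 53430831, had a mean of 1104 TPM over the 12 libraries, beside 1097 TPM for Cox6a1 of complex IV. Cox6a1 was the higher of the pair in 8 of 12 libraries, and without aged/doxo library 2 and young control library 1 the means were 993 TPM for Uqcrq and 1127 TPM for Cox6a1. Uqcrq had 1199, 952, 840 and 869 TPM in KSL0608-Se-treated libraries, 861, 2012, 1001 and 1472 TPM in aged/doxo libraries and 1306, 720.3, 944 and 1073 TPM in young control libraries. Its highest value was in aged/doxo library 2, the library in which Sdha was lowest. The log2 difference was 0.36 ± 0.27 in aged/doxo against young control liver (limma adjusted p = 1.0) and -0.40 ± 0.27 in treated against aged/doxo liver (limma adjusted p = 0.428). Without the same 2 libraries these were 0.27 and -0.18, and with the dependence on gene length as a covariate the difference in treated against aged/doxo liver turned to 0.06.

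The large core proteins of complex III went the other way between libraries. Uqcrc2 had 108, 121, 128 and 134 TPM in KSL0608-Se-treated libraries, 124, 38.3, 115 and 89.8 TPM in aged/doxo libraries and 66.5, 112, 112 and 103 TPM in young control libraries. Uqcrc1 averaged 209 ± 31.9 TPM in treated, 158 ± 60.6 TPM in aged/doxo livers and 177 ± 48.1 TPM in young control livers. Uqcrh, the hinge protein next to cytochrome c1, averaged 431 ± 16.4, 352 ± 130 and 407 ± 63.7 TPM in the same groups, with 157 TPM in aged/doxo library 2. The Rieske iron-sulfur protein gene Uqcrfs1 had its lowest values, 94.0 and 115 TPM, in aged/doxo library 2 and young control library 1. The complex III median log2 difference was 0.21 in treated against aged/doxo liver, beside 0.30 for all genes, and 0.04 without those libraries, beside 0.13.

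Complex IV reduces oxygen, and several of its subunits exist as a liver or general form and a heart and muscle form. Liver used the general forms. Cox6a1 averaged 1103 ± 57.8 TPM in KSL0608-Se-treated, 1097 ± 221 TPM in aged/doxo livers and 1091 ± 122 TPM in young control livers, and made up 99.9% to 100% of the Cox6a pair in each library. Cox8a made up 99.7% to 100% of its set. Cox6b1 made up 99.5% to 100% of the pair with Cox6b2, its testis form. Cox7b2, Cox8c and Cox6c2 were listed at 0 in every library.

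Cox6b1, on chromosome 7 from 30616861 to 30626151, had 641, 613, 604 and 621 TPM in KSL0608-Se-treated libraries, 566, 531, 565 and 585 TPM in aged/doxo libraries and 624, 560.0, 539 and 549 TPM in young control libraries. All treated libraries lay above all aged/doxo libraries, with 604 TPM against 585 TPM at the nearest. It was the steadiest of the 79 genes, with an SD of 0.09 on the log2 scale over 12 libraries. The log2 difference in treated against aged/doxo liver was 0.14 ± 0.14 (limma adjusted p = 0.519). Against young control liver it was 0.13 ± 0.14 (limma adjusted p = 0.734), 0.17 without aged/doxo library 2 and young control library 1 (unadjusted p = 0.0333, limma adjusted p = 0.985), and it turned to -0.16 under median-of-ratios scaling and to -0.05 under a total without the most abundant genes.

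Cox7a1 is the heart and muscle form of subunit VIIa and lies on chromosome 7 from 30184144 to 30186078. It had 5.09, 3.52, 3.16 and 3.79 TPM in KSL0608-Se-treated libraries, 3.61, 9.15, 5.07 and 10.3 TPM in aged/doxo libraries and 7.10, 5.46, 5.45 and 12.5 TPM in young control libraries. All treated libraries lay below all young control libraries, while the aged/doxo libraries spanned both. Its share of the Cox7a set averaged 1.21 ± 0.180% in treated, 3.15 ± 2.6% in aged/doxo livers and 2.65 ± 0.826% in young control livers. The log2 difference was -0.76 ± 0.31 in treated against young control liver (unadjusted p = 0.0296, limma adjusted p = 0.734) and -0.52 without young control library 4. Against aged/doxo liver it was -0.64 ± 0.31 (limma adjusted p = 0.427). It was -0.77 against young control and -0.49 against aged/doxo liver without aged/doxo library 2 and young control library 1.

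Markers of striated muscle were highest in the same libraries as Cox6a2, and followed Cox7a1 and Cox8b only in part. The sum of 9 muscle markers was 0.58 to 0.81 TPM in KSL0608-Se-treated libraries, 0.94, 15.9, 2.80 and 15.1 TPM in aged/doxo libraries and 13.9, 0.26, 0.50 and 1.69 TPM in young control libraries. Of the 9 markers, 1 had a mean of at least 1 TPM. Myoglobin (Mb) was listed at 0 except in aged/doxo libraries 2 and 4 and young control library 1, at 2.25, 3.17 and 5.37 TPM, and so was the muscle creatine kinase gene Ckm, at 0.51, 0.54 and 0.63 TPM. The muscle form Cox6a2 was highest in the same libraries, at 0.89, 0.90 and 0.98 TPM, and at most 0.22 TPM elsewhere. Cox8b reached 2.14 TPM in aged/doxo library 4 and 0.57 TPM in library 2, and was listed at 0 in all treated libraries. It had 0.81 TPM in young control library 4 and 0.36 TPM in library 3, above the 0.32 TPM of young control library 1. For Cox7a1 the highest value, in young control library 4, stood beside a marker sum of 1.69 TPM. In that library 4 white adipocyte markers summed to 5.84 TPM, against at most 1.63 TPM in any other library, and 0 of the 4 had a mean of at least 1 TPM. The sum of 4 brown adipocyte markers, 1 of them with a mean of at least 1 TPM, was not raised there. It was 475 TPM, against 313, 618 and 450 TPM in young control libraries 1, 2 and 3. The sum of 4 smooth muscle markers was 3.82 to 7.11 TPM in treated libraries, 9.34 to 22.02 TPM in aged/doxo libraries, highest in library 4, and 3.90 to 15.1 TPM in young control libraries, highest in library 4. The part of these cells in the Cox7a1 difference was not tested.

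**Figure D3:**
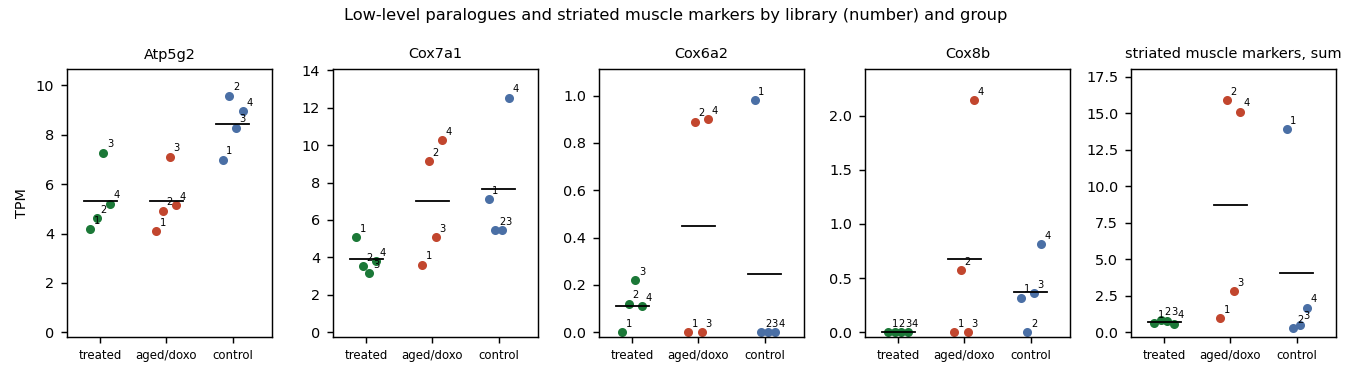
Level in TPM of Atp5g2, Cox7a1, Cox6a2 and Cox8b and the summed level of 9 striated muscle markers in each library, with the library number beside each point and a bar at the group mean. Atp5g2 has its highest mean in young control libraries, and Cox6a2 and the muscle markers are highest in aged/doxo libraries 2 and 4 and young control library 1.

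The general form Cox7a2 averaged 225 ± 36.6 TPM in KSL0608-Se-treated, 203 ± 68.0 TPM in aged/doxo livers and 201 ± 23.2 TPM in young control livers. Cox7a2l, whose protein joins complexes III and IV into supercomplexes, had 71.8, 85.5, 108 and 99.8 TPM in treated libraries, 85.2, 14.4, 91.0 and 71.2 TPM in aged/doxo libraries and 35.6, 90.1, 76.4 and 98.5 TPM in young control libraries. Its lowest values were in aged/doxo library 2 and young control library 1, as for Sdha. The log2 difference in treated against aged/doxo liver was 0.74 ± 0.51 (limma adjusted p = 0.428). It was 0.14 without those 2 libraries and 0.03 with the length covariate. Cox5a, a matrix-side subunit, was 81.5 and 193 TPM in those 2 libraries and 309.8 to 387 TPM in the other 10.

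Cox7b, the gene for subunit VIIb, had 200.6, 231, 209 and 188 TPM in KSL0608-Se-treated libraries, 156, 161, 185 and 202 TPM in aged/doxo libraries and 214, 125.5, 161 and 172 TPM in young control libraries. Treated libraries 2 and 3 lay above all aged/doxo libraries, and the groups overlapped. The log2 difference was 0.32 ± 0.19 in treated against young control liver (limma adjusted p = 0.734). It was 0.44 without aged/doxo library 2 and young control library 1 (unadjusted p = 0.0089, limma adjusted p = 0.985). In that fit 3 of 79 genes (3.8%), Cox7b, Cox6b1 and Atp5g2, had an unadjusted p under 0.05, with 3.72% of all genes. Over all 22 alternatives the Cox7b difference ranged from 0.04 to 0.44. Cox5b averaged 378 ± 32.1 TPM in treated, 442 ± 71.6 TPM in aged/doxo livers and 391 ± 47.6 TPM in young control livers, and Cox7c averaged 614 ± 71.0, 754 ± 148 and 658 ± 136 TPM in the same groups.

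Complex V makes ATP. The catalytic beta subunit gene Atp5b averaged 1083 ± 260.2 TPM in KSL0608-Se-treated, 802 ± 311 TPM in aged/doxo livers and 920.5 ± 264 TPM in young control livers. The alpha subunit gene Atp5a1, on chromosome 18 from 77773729 to 77782869, had 343, 449.7, 467 and 556 TPM in treated libraries, 462, 80.3, 398 and 268 TPM in aged/doxo libraries and 179, 469.9, 378 and 378 TPM in young control libraries. Alpha and beta genes were both lowest in aged/doxo library 2, while the epsilon subunit gene Atp5e was highest there, at 1242 TPM. The log2 difference in treated against aged/doxo liver was 0.83 ± 0.47 for Atp5a1 and 0.51 ± 0.33 for Atp5b (limma adjusted p = 0.427 for both). They were 0.29 and 0.17 without aged/doxo library 2 and young control library 1. With the dependence on gene length as a covariate Atp5b turned to -0.01.

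The 4 genes of the peripheral stalk, which holds the catalytic head still, had a median log2 difference of 0.00 in treated against aged/doxo and 0.02 in aged/doxo against young control liver. The 5 small membrane subunits measured here had medians of 0.00 and 0.03 in the same comparisons. Atp5h, the gene for subunit d of the stalk, averaged 487 ± 50.6 TPM in KSL0608-Se-treated, 580.5 ± 115 TPM in aged/doxo livers and 501.3 ± 70.9 TPM in young control livers. Atp5l, the gene for subunit g, is uncertain because Gm10221, at 258 TPM, matches it at 100% identity over 309 bases. One of the 2 entries named Atp5o was listed at 0 in every library.

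Subunit c forms the rotating ring of ATP synthase, and 3 genes encode the same mature protein with different import sequences. Atp5g1 averaged 463 ± 18.6 TPM in KSL0608-Se-treated, 442 ± 74.7 TPM in aged/doxo livers and 471 ± 14.3 TPM in young control livers. Atp5g3 averaged 802 ± 41.8, 664 ± 296 and 695 ± 130 TPM in the same groups. Between them they held more than 99% of the subunit c transcripts in each library. Atp5g3 made up 61.1% to 64.7% of the set in the treated and aged/doxo libraries other than aged/doxo library 2, where it made up 37.5%.

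Atp5g2 was the minor gene of the set and the only one of the chain at an unadjusted p under 0.05 in 2 comparisons. It lies on chromosome 15 from 102662864 to 102672352 (minus strand) and had 4.17, 4.61, 7.27 and 5.2 TPM in KSL0608-Se-treated libraries, 4.10, 4.92, 7.12 and 5.14 TPM in aged/doxo libraries and 6.99, 9.59, 8.28 and 8.95 TPM in young control libraries. Library 3 of the treated and of the aged/doxo group just overlapped young control library 1, and the other 6 libraries of those groups lay below all young control libraries. The log2 difference was -0.59 ± 0.20 in aged/doxo against young control liver (unadjusted p = 0.0112, limma adjusted p = 1.0) and -0.60 ± 0.20 in treated against young control liver (unadjusted p = 0.0107, limma adjusted p = 0.734). Over all 22 alternatives these ranged from -0.72 to -0.50 and from -0.84 to -0.51, and the smallest adjusted p was 0.663 and 0.507. They were -0.65 and -0.68 without aged/doxo library 2 and young control library 1. In treated against aged/doxo liver the difference was 0.00. The 2 comparisons share the young control libraries, and Atp5g2 made up less than 1% of subunit c transcripts throughout.

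The promoters of the subunit c genes and of the Cox7a pair are shown because each set joins an abundant gene with the minor one that differed most between groups. Each window runs from 250 bases before to 50 bases after a start of the gene in RefSeq on GRCm38.p6, 5′ to 3′ on the gene's strand. For Atp5g2 this start differs from that of the position given above. Its window lies wholly inside that position, which begins at 102672352 on the minus strand. Capitals mark a match to the motif of the nuclear respiratory factor NRF1, spelled GCGCA, any base, then GCGC, and searched on both strands.
Atp5g1, chr11:96075582-96075881, minus strand: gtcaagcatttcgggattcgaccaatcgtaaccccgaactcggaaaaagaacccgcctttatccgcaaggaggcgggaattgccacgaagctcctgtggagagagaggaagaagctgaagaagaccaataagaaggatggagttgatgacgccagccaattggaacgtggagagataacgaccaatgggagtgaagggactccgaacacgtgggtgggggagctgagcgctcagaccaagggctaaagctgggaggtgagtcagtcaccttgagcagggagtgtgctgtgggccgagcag
Atp5g2, chr15:102670998-102671297, minus strand: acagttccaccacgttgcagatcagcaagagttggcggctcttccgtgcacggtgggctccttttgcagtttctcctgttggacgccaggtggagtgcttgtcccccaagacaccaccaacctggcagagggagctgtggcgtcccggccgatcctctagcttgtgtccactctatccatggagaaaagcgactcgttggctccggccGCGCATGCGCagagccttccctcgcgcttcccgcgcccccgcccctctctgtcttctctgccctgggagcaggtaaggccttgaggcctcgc
Atp5g3, chr2:73911277-73911576, minus strand: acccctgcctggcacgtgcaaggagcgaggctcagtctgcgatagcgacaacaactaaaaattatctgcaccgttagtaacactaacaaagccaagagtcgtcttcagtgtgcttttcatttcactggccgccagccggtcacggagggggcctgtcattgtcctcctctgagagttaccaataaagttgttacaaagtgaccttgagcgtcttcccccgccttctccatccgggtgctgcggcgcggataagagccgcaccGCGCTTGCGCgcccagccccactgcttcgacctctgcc
Cox7a1, chr7:30183921-30184220, plus strand: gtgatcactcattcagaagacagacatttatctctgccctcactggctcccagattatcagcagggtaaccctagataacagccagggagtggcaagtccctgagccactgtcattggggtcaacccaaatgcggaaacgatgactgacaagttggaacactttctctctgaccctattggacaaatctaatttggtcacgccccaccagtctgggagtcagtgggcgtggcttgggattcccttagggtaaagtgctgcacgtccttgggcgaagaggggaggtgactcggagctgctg
Cox7a2, chr9:79759804-79760103, minus strand: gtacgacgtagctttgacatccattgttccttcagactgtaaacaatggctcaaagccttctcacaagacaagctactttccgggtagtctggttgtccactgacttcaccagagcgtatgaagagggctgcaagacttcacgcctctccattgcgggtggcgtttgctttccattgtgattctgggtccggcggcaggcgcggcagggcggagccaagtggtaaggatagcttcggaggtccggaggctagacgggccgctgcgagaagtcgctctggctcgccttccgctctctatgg

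Atp5g2 and Atp5g3 each hold 1 match and the other windows none. The Cox7a1 window has 7 CG pairs, against 16 to 21 in the 4 others. Of the 86 symbols of the chain, 68 genes had a window in the RefSeq table, some more than 1. The NRF1 motif is held in a window by 17 of the genes (25%), against 5.19% of 27025 genes with a window. Those 27025 genes were not limited to the genes tested in liver. The motif of the ETS family, to which the respiratory factor GABPA belongs, is spelled CCGGAAG. It was found for 17 genes (25%), against 9.93% of the same 27025 genes. Of the 68 genes, 4 hold both and 38 neither. Neither motif contains the other. NRF1 matches were found for 7 of 32 genes of complex I, 2 of 3 of complex II, 1 of 5 of complex III, 1 of 13 of complex IV and 6 of 15 of complex V. The windows of the chain were richer in GC (median 57.3% against 52.7%) and in CG pairs (19 against 7), and the part of this in the motif shares was not tested. A match is a description of the letters and no binding was measured.

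Single libraries also stood apart over many of these genes at once. In aged/doxo library 2, 57 of 79 genes lay below their mean over all libraries, 36 of them by 0.5 or more and 12 by 1 or more on the log2 scale. The median deviation of the chain there was -0.30, beside -0.61 for all genes tested, so the chain was less low than the whole table. So were the 89 cytosolic ribosomal protein genes, at -0.27. The lowest of the 79 was Sdhd at -2.45, and the highest was the complex I accessory gene Ndufa5 at 0.93, both picked after their values were seen. In young control library 1, 47 of 79 genes were below their mean, with Sdha lowest at -1.31. The median there was -0.05 for the chain, beside -0.455 for all genes. In aged/doxo library 4, by contrast, 11 of 79 were below, with a median deviation of 0.27, beside -0.08 for all genes. KSL0608-Se-treated library 1 had 9 of 79 below, with a median of 0.16, beside 0.03 for all genes. Young control library 4 had 11 of 79 below, with a median of 0.12, beside 0.12.

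**Figure D4:**
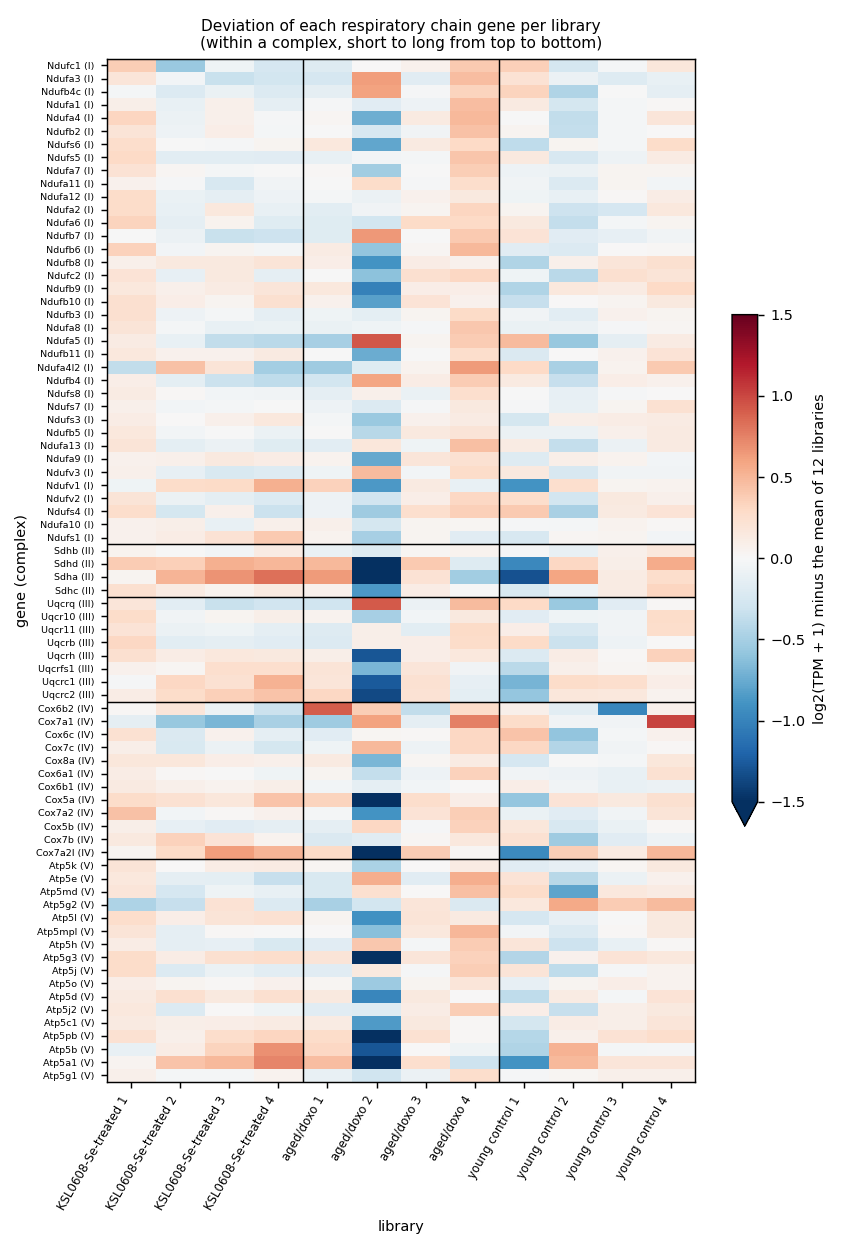
Deviation of 78 of the 79 tested genes from their means over the 12 libraries, on the log2(TPM + 1) scale, with libraries in columns by group and genes in rows by complex, short to long from top to bottom. The column of aged/doxo library 2 holds the darkest blue cells, among them Sdha, Sdhd, Cox7a2l, Atp5a1 and Cox5a, beside a red cell for Uqcrq. Values under -1.5 share the darkest blue.

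Within the chain the deviation of a library followed the deposited length of the genes. In aged/doxo library 2 the deviation changed by -0.37 for each doubling of length over the 79 genes, against -0.13 over all genes and -0.18 over 89 genes of cytosolic ribosomal proteins. The 40 longer genes had a median deviation of -0.54 there, 33 of them below their mean, and the 39 shorter ones -0.16, with 24 below. Young control library 1 had a slope of -0.20 and aged/doxo library 4 of -0.15. KSL0608-Se-treated library 4 had the steepest slope in the other direction, at 0.17.

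These slopes divide the libraries across groups. All 4 treated libraries lay between -0.04 and 0.17, the aged/doxo libraries between -0.37 and 0.09 and the young control libraries between -0.20 and 0.14. Genes also departed from the slope. Atp5g1, the longest at 4715 bases, deviated by -0.30 in aged/doxo library 2 and Cox5a, at 645 bases, by -1.81. With the length slope of each library as a covariate, Sdha gave 0.00 in treated against aged/doxo liver. What the slope reflects in these libraries was not tested.

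**Figure D5:**
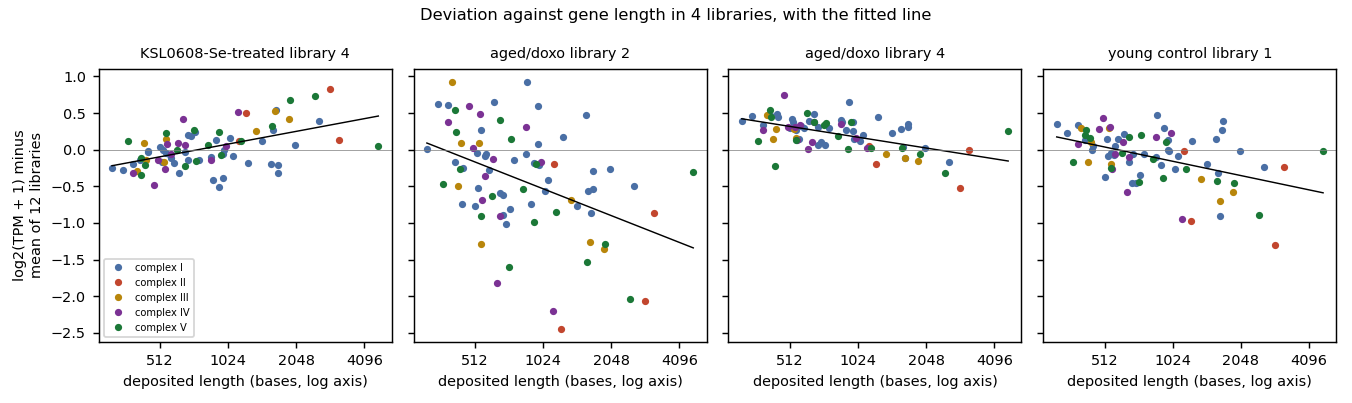
Deviation of the 79 genes on the log2(TPM + 1) scale against deposited length in bases (log axis) in the libraries with the steepest slopes in either direction, coloured by complex, with the fitted line. Long genes lie low in aged/doxo libraries 2 and 4 and young control library 1 and high in KSL0608-Se-treated library 4.

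Without aged/doxo library 2 and young control library 1 the genes of the chain were steadier. The median SD on the log2 scale was 0.27 over 12 libraries and 0.19 over 10. Of the 78 genes with a value above 0 in every library, 34 varied at least 2-fold between the lowest and highest of 12 libraries, and 7 did over 10. Uqcrh varied 3.1-fold over 12 libraries and 1.25-fold over 10. Cox7a1 and Atp5g2 varied by the same 3.97-fold and 2.34-fold with and without them.

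The mitochondrially encoded subunits were the counterpart of these genes. The 13 transcripts held 10.0 ± 1.32% of all TPM in KSL0608-Se-treated, 14.9 ± 8.28% in aged/doxo livers and 9.71 ± 1.79% in young control livers. Without aged/doxo library 2 and young control library 1 the mean was 10.7% in aged/doxo livers and 8.86% in young control livers. Their ratio to the nuclear genes of the chain was 13.2 in aged/doxo library 2, whereas the remaining libraries spanned 3.59 to 5.31. None of the 13 passed in any comparison, and 12 of 13 were higher in aged/doxo than in young control liver, with a median log2 difference of 0.37. Of all 10883 genes, 3833 were higher there, with a median of -0.08. In treated against aged/doxo liver 12 of 13 were lower, with a median of -0.47. Of all 10883 genes, 2056 were lower there, with a median of 0.30, and the direction of the nuclear genes differed by complex as given above. The gene mt-Atp8, for a subunit of ATP synthase, had the smallest p in aged/doxo against young control liver (log2 difference 0.46 ± 0.19, unadjusted p = 0.0297, limma adjusted p = 1.0). The median of the 13 in aged/doxo against young control liver was 0.19 without aged/doxo library 2 and young control library 1, beside -0.04 for all genes. Of the 13, 12 were then higher in aged/doxo liver. In treated against aged/doxo liver the median was -0.09 without those 2 libraries, beside 0.13 for all genes, with 4 of 13 higher in treated liver. Without them mt-Atp8 gave 0.46 in aged/doxo against young control liver. It averaged 39721 ± 9111 TPM in aged/doxo livers and 28769.7 ± 6182 TPM in young control livers.

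Subunits with symbols outside the rule were tested as well. Cox4i1, subunit IV of complex IV, averaged 943 ± 36.1 TPM in KSL0608-Se-treated, 887 ± 134 TPM in aged/doxo livers and 875 ± 70.3 TPM in young control livers. Cyc1, cytochrome c1 of complex III, had 57.2 TPM in aged/doxo library 2 and 105 TPM in young control library 1, its lowest values. None of the 4 tested genes of this kind passed.

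The genes that build and regulate the chain gave no call either, with 0 of 15 complex I assembly factors, 0 of 31 assembly factors of the other complexes, 0 of 15 genes of electron carriers and coenzyme Q synthesis and 0 of 13 regulators in each comparison. The medians in treated against aged/doxo liver were 0.29, 0.16, 0.42 and 0.33, beside 0.30 for all genes. They were 0.02, 0.00, 0.10 and 0.19, beside 0.13, without aged/doxo library 2 and young control library 1. Tfam, which packages mitochondrial DNA, had 18.7, 15.8, 22.4 and 16.4 TPM in KSL0608-Se-treated libraries, 18.5, 2.09, 15.7 and 7.45 TPM in aged/doxo libraries and 4.22, 14.8, 11.7 and 17.7 TPM in young control libraries. Its log2 difference was 0.99 ± 0.52 in treated against aged/doxo liver (limma adjusted p = 0.427) and 0.45 without those 2 libraries. Tmem186, a complex I assembly factor, gave 0.43 ± 0.18 in the same comparison (unadjusted p = 0.0344, limma adjusted p = 0.427), where 4.77% of all genes reached that level, and 0.37 without those libraries.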

How the data were processed

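RNA of mouse liver was measured in 12 libraries, 4 in each of 3 groups taken from the labels. The deposited values are TPM per gene, made by the authors, and the submitters' processing notes name fastp, HISAT and RSEM without versions or order. The sources used here do not give the genome build, strand setting or read depth, and TPM does not retain depth, so no counting interval is given. No label ties libraries to animals, so p-values measure the spread between libraries, which may be technical.

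Values were taken as log2(TPM + 1), which understates the change of low genes. Genes with a mean of at least 1 TPM (10883) were fitted with limma 3.58.1 in R 4.3.3, with an intensity trend, all 12 libraries and no covariate. Tests were two-sided, with Benjamini-Hochberg adjustment over all genes at 0.05 and 95% intervals. Code ran in Python 3.11.15 with matplotlib 3.10.9, and the fit was tested on simulated data. Named genes were drawn from the 4 genes of smallest p per complex and comparison, the highest and lowest gene of each complex, the paralogue sets, the catalytic core genes and up to 3 genes of each other list. Of the tested genes, 1 is counted in all totals but not reported here by name. The genes and lists were chosen with earlier results of these data known.

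Gene positions came from GENCODE M21 on GRCm38, matched by Ensembl ID for 87 of 87 genes. Copies of protein-coding transcripts were sought with BLAST 2.17.0 at 95% identity over at least 200 bases. Of the 79 genes, 25 had one, and 2 had copies above 10% of their own level. The pseudogene Ndufb4c was not searched and is counted as having no copy, although it matches Ndufb4. An exon overlapped a gene of the opposite strand in 25 genes, and in 3 the partner exceeded 10% of the gene's level. Those 3 are Ndufs1, Ndufs6 and Ndufa4l2. Same-numbered libraries deviated together (correlation above 0.1) in 2 of 12 pairs, so numbers were not taken as pairs. Alternatives changed the pseudocount, filter, scaling, length dependence, libraries and replicate block.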

Additional observations from a re-analysis of the deposited data

Results flagged for a closer look

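In 24 of 261 tests a single library of a group stood far from the other 3 by Dixon's test of the gap to the nearest library. Chance gives this in about 1 in 20 for a single test. The 261 tests share libraries in which many genes deviate together, and some are sums of the same genes. Their count therefore cannot be read against that rate. Among genes, 19 of 237 tests were flagged. By library, 9 concerned aged/doxo library 2, 5 KSL0608-Se-treated library 1, 4 young control library 1, 2 aged/doxo library 4, 2 young control library 2, 1 KSL0608-Se-treated library 3 and 1 young control library 4.

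Aged/doxo library 2 was low for genes of all 5 complexes, and the median deviation of all genes tested there was -0.61. In complex I, Ndufb8 stood at 127 TPM against 249 to 255 TPM in the other aged/doxo libraries, and Ndufb9 at 195 TPM against 424 to 442 TPM. Sdhc stood at 64.6 TPM against 118 to 128 TPM, and Uqcrh at 157 TPM against 407 to 429.7 TPM. Cox8a stood at 351 TPM against 579.7 to 621 TPM. In complex V the gamma subunit gene Atp5c1 stood at 147 TPM against 269 to 295 TPM, and Atp5g3 at 225 TPM against 778 to 869.6 TPM. The same library was high for mitochondrially encoded subunits, at 27.2% of TPM against 9.76% to 11.4%, and for their ratio to the nuclear genes, at 13.2 against 3.94 to 4.74. Young control library 1 was low for Ndufs3 (125 TPM against 160.1 to 165 TPM), Uqcrfs1 (115 TPM against 155 to 161 TPM) and Cox5a (193 TPM against 318 to 341 TPM), and its ratio was 5.31 against 3.67 to 3.94.

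KSL0608-Se-treated library 1 was high for 3 genes and for the shares of complexes I and III. Ndufa12 stood at 260.1 TPM against 195 to 203 TPM in the other treated libraries, Ndufs5 at 266 TPM against 192 to 194 TPM and Uqcrb of complex III at 491 TPM against 353 to 362 TPM. Complex I held 0.826% of TPM there against 0.704% to 0.720%, and complex III 0.428% against 0.356% to 0.361%. Aged/doxo library 4 was high for Ndufa8 (200.1 TPM against 140.1 to 148 TPM) and Ndufs5 (288 TPM against 199 to 212 TPM). Young control library 4 was high for Cox6a1, at 1272 TPM against 1010.5 to 1047 TPM. Young control library 2 was low for Ndufb4, at 35.6 TPM against 47.8 to 50.4 TPM, and for Atp5j2, at 221 TPM against 298 to 311 TPM. KSL0608-Se-treated library 3 was low for Ndufa10, at 87.1 TPM against 98.4 to 100.3 TPM.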

How the results depend on the processing

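No gene of the chain was called under any of 22 alternatives. Of 1297 recomputed values for named genes, 1249 kept their direction and side of the threshold and 48 changed sign, all of them below the threshold. The count at an unadjusted p under 0.05 was 0 to 6, the highest in KSL0608-Se-treated against aged/doxo liver without aged/doxo library 1, where 22.7% of all genes reached it. Genes called over the whole table stayed few. In aged/doxo against young control liver the count was 1, with 3 under median-of-ratios scaling and under a total without mitochondrial and the 50 most abundant genes (trimmed total), 2 with a length covariate, a pseudocount of 0.1 or quantile scaling, 0 with no filter, only the compared groups or the replicate block, and 0 to 2 leaving out 1 library. In KSL0608-Se-treated against aged/doxo liver it was 1, with 2 for only the compared groups, 0 for the length covariate, the 3 scalings, no filter, the replicate block and without aged/doxo library 2 and young control library 1, and 0 to 1 leaving out 1 library. In KSL0608-Se-treated against young control liver it was 3, with 1 for no filter, only the compared groups or the replicate block, 5 for the trimmed total, and 1 to 5 leaving out 1 library. The replicate block gave medians of the chain of -0.02, 0.04 and 0.04 and changed no call of its genes.

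In KSL0608-Se-treated against aged/doxo liver the median of the chain was -0.32 under median-of-ratios, -0.18 under quantile and -0.17 under trimmed-total scaling, and against young control liver -0.24 under median-of-ratios and -0.13 under trimmed-total scaling. Sign changes follow, and their cause was not tested. With the length covariate, KSL0608-Se-treated against young control liver gave Atp5a1 -0.087, Sdha -0.040, Sdhc -0.0019, Sdhd -0.056 and Uqcrc1 -0.053, and KSL0608-Se-treated against aged/doxo liver gave Atp5b -0.0091, Cox7c 0.022 and Uqcrq 0.060. Median-of-ratios scaling gave Atp5d -0.013, Atp5l -0.049, Ndufs1 -0.030, Sdhb -0.29 and Sdhc -0.065 against aged/doxo liver. Against young control liver it gave Atp5d -0.071, Atp5l -0.031, Cox6b1 -0.16, Cox8a -0.12, Ndufb10 -0.090, Ndufs1 -0.033, Sdhb -0.28, Sdhc -0.18, Uqcr10 -0.19, Uqcrc1 -0.0036 and Uqcrfs1 -0.075. In aged/doxo against young control liver it gave Sdhb 0.016. Quantile scaling gave Sdhb -0.15, Sdhc -0.10 and Uqcr10 -0.034 in KSL0608-Se-treated against young control liver, and Sdhb -0.12 against aged/doxo liver. The trimmed total gave Cox6b1 -0.051, Cox8a -0.016, Sdhb -0.17, Sdhc -0.074 and Uqcr10 -0.087 against young control liver, and Sdhb -0.13 against aged/doxo liver. Without aged/doxo library 2 and young control library 1, Sdhb was -0.0079 in KSL0608-Se-treated against young control liver.

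Leaving out 1 library, aged/doxo against young control liver ranged from -0.30 to 0.024 for Sdhc, -0.76 to 0.23 for Sdhd, -0.76 to 0.19 for Sdha, -0.44 to 0.046 for Uqcrh, -0.45 to 0.12 for Uqcrc1, -0.38 to 0.17 for Uqcrc2, -0.71 to 0.22 for Cox7a2l and -0.69 to 0.15 for Atp5a1, each positive without aged/doxo library 2. Sdhb ranged from -0.039 to 0.050 in KSL0608-Se-treated against young control liver. With 4 libraries a group and a median interval half-width of 0.465, smaller differences of single genes were not resolved.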
